A study of Mus musculus with 10 samples.

Results

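The imprinted growth genes Cdkn1c, H19, Ndn, Grb10, Peg3, Plagl1, Mest, Meg3, Dlk1 and Snrpn were followed by symbol in the gene-level RNA-seq table of mouse biceps femoris, a hindlimb muscle. Of these 10 genes 9 were found among the 15883 genes of the table, and Snrpn was not analysed here. The first group was 5 male C57BL/6J mice that carry a Zfp407 transgene and the second was 5 wild-type males of the same strain. All were 5 weeks old, ate normal chow and had been fasted for 16 hours, and muscle had been kept in RNAlater. The promoter that drives the transgene and the number of founder lines are not stated in the labels, and the genotype label spells the gene Zp407. The title of the series ties overexpression of this zinc finger protein to glucose homeostasis.

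An imprinted gene is transcribed mainly from the copy inherited from the mother or mainly from the copy inherited from the father, and the choice is set by DNA methylation laid down in the germ line. Many imprinted genes act on growth before and shortly after birth, and several of them lose most of their transcript as the juvenile animal matures. In muscle they are found in satellite cells and in connective and fat cells as well as in fibres. All mice were of 1 inbred strain and the table counts reads per gene, so the parental copies were not separated, and fewer cells of a type and less RNA per cell cannot be told apart in whole muscle.

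Total counts ran from 15162400 to 19047834 per transgenic library and from 13530367 to 17814900 per wild-type library. Column headings give a library's genotype and a number that no label ties to a mouse, so that number only names a library and pairs none across the 2 groups. Zfp407 ran from 317 to 616 CPM in transgenic libraries, against 21.0 to 25.7 CPM in wild-type libraries. CPM is the count of a gene scaled to a common library total (counts per 1e+06 reads after TMM scaling). Skeletal muscle fibre markers (10 genes) summed to 78315 to 114751 CPM in transgenic and 84360 to 110554 CPM in wild-type libraries. All 16 hepatocyte markers tested had a positive log2 fold change in the transgenic group. By edgeR 13 of them passed as higher at an adjusted p under 0.05, where 4.28% of all genes tested did. The 16 markers summed to 507 to 5787 CPM in transgenic libraries, against 183 to 367 CPM in wild-type libraries. Hp, Trf and Cyp2e1 did not pass, and Cyp2e1 alone made up 41.4 to 204 CPM of the wild-type sums. The rows Lars2, Gm15564 and Gm15662, which resemble ribosomal RNA, took 9.62% to 17.3% of counts in transgenic and 14.3% to 33.9% in wild-type libraries. Transgenic library 3 stood apart in several of the genes below, and its values are named there.

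A filter on low counts kept 8 of the 9 genes and left out Dlk1. The genes were chosen by name with the fold changes between transgenic and wild-type muscle in these same counts already known, so their fold changes and adjusted p-values give their place in the whole table and are no independent test of them. By edgeR's quasi-likelihood test with Benjamini-Hochberg adjustment over 13338 genes, 1 of the 8 fell in transgenic muscle and none rose. Of all genes tested 5.33% were called in either direction, 1.05% as lower and 4.28% as higher. Cdkn1c was the gene that fell. The median log2 fold change was -0.16 over the 8 genes and 0.003 over all genes tested, and 3 of the 8 had an unadjusted p under 0.05, as had 2412 of all 13338.

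**Figure D1:**
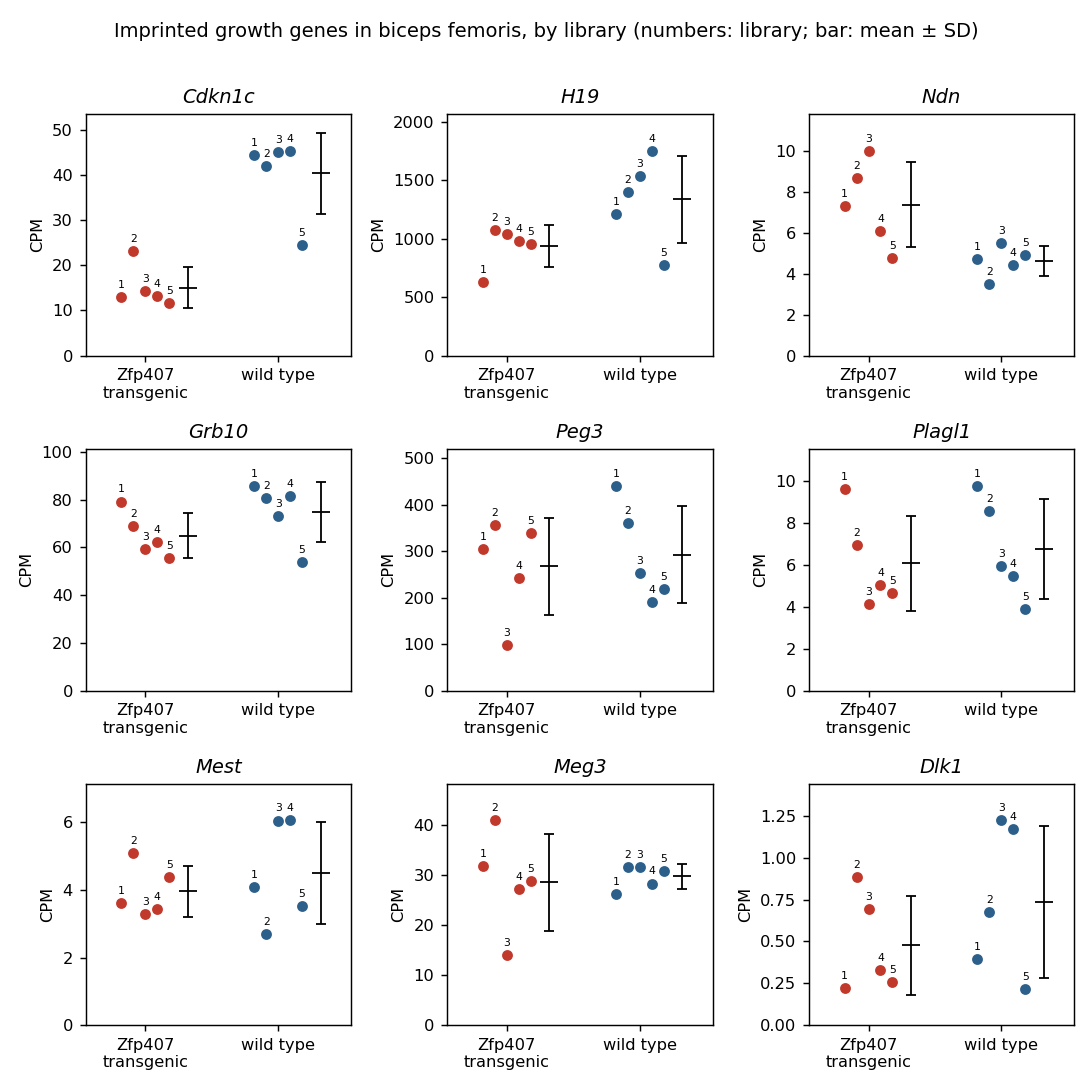
CPM of the 9 imprinted growth genes in each library, with Zfp407 transgenic libraries (red) left of wild-type libraries (blue), numbers for the table's columns and bars for mean ± SD (n = 5 each). The groups are apart for Cdkn1c, with transgenic libraries from 11.6 to 23.1 CPM and wild-type libraries from 24.5 to 45.4 CPM, and overlap for the other genes.

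Cdkn1c encodes p57KIP2, an inhibitor of cyclin-dependent kinases that holds cells out of the cell cycle and is transcribed from the maternal copy. It lies on chromosome 7 from 143458339 to 143461050 on the minus strand (GRCm38). Transgenic libraries 1 to 5 held 13.1, 23.1, 14.4, 13.1 and 11.6 CPM, and wild-type libraries 1 to 5 held 44.5, 42.0, 45.1, 45.4 and 24.5 CPM. The groups did not overlap, as in 8.04% of all genes tested in either direction, but transgenic library 2, the highest of its group, and wild-type library 5, the lowest of its own, lay close together. Lower transgenic libraries with no overlap were seen in 2.90% of all genes tested. The mean was 15.1 ± 4.61 CPM in transgenic and 40.3 ± 8.91 CPM in wild-type muscle (SD, n = 5 each), which rests on 1418 and 2911 reads in all. By edgeR the level was 2.67-fold lower, a log2 fold change of -1.42 with SE 0.21 and an adjusted p of 0.00196. The authors' deposited table gives a log2 fold change of -1.42 with an adjusted p of 9.36e-09.

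The fall of Cdkn1c was present without any of the 10 libraries, with log2 fold changes from -1.63 to -1.34. Without transgenic libraries 4 and 5, which held the most hepatocyte transcripts, it was -1.25 (edgeR adjusted p = 0.0137). With the hepatocyte markers as a covariate it was -1.05 ± 0.36 (SE) and did not pass (edgeR adjusted p = 0.243). The covariate separates the groups without overlap, so genotype and hepatocyte transcript level cannot be told apart in that fit.

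H19 is a maternally transcribed long noncoding RNA that shares an imprinting control region with Igf2, and it gives rise to a microRNA that restrains growth. It is found at chromosome 7, 142575529 to 142578143, minus strand. Its level was 633, 1076, 1043, 985 and 953 CPM in transgenic libraries 1 to 5 and 1212, 1403, 1537, 1753 and 774 CPM in wild-type libraries 1 to 5. All transgenic libraries lay below wild-type libraries 1 to 4, and wild-type library 5 lay below 4 of the 5 transgenic ones. The mean was 938 ± 177 CPM in transgenic and 1336 ± 371 CPM in wild-type muscle (SD, n = 5 each). The log2 fold change of -0.51 ± 0.21 (SE) did not pass (edgeR adjusted p = 0.209). It did not pass without any 1 library either, with the adjusted p nearest the threshold, 0.0594, without wild-type library 5 (log2 fold change -0.66). The authors' deposited table gives an adjusted p of 0.148.

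Wild-type library 5 held the lowest wild-type level of Cdkn1c, H19, Grb10, Plagl1 and Dlk1. The Schwann cell markers in the table (4 of 6 listed) summed to 208 CPM in that library and to 15.7 to 28.6 CPM in the other wild-type libraries, with 14.9 to 69.8 CPM in transgenic libraries. Over all 10 libraries, with each value centred on its group mean and libraries shuffled within groups, these markers had r = -0.88 with H19 (permutation adjusted p = 0.193 over 72 pairs of genes and marker lists) and r = -0.78 with Cdkn1c (permutation adjusted p = 0.239). Spearman rho was -0.66 for H19 (permutation adjusted p = 0.330) and -0.84 for Cdkn1c (permutation adjusted p = 0.175). Neither passed, and r was -0.21 for H19 without transgenic library 1 and wild-type library 5 and -0.52 for Cdkn1c without transgenic library 2 and wild-type library 5.

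Igf2, the paternally transcribed growth factor 72623 bases from H19, moved the other way from Cdkn1c. Its mean was 80.0 ± 7.05 CPM in transgenic and 31.4 ± 6.53 CPM in wild-type muscle (± SD, n = 5 each; edgeR log2 fold change 1.35 with SE 0.14, adjusted p = 0.000104), and reads of Igf2os on the opposite strand cannot be told apart because strand use is not stated. Nctc1, a noncoding transcript of muscle 16933 bases to the other side of H19, fell to 65.3 ± 5.79 CPM in transgenic muscle, against 92.0 ± 10.3 CPM in wild-type muscle (± SD, n = 5 each; edgeR log2 fold change -0.49 with SE 0.11, adjusted p = 0.0173). Between H19 and Cdkn1c, which are 880196 bases apart, Cd81 had a log2 fold change of -0.12, Tssc4 one of 0.22 and Kcnq1 one of 0.04. Nap1l4, on the far side of Cdkn1c, had one of -0.09. None of these 4 passed, so calls of both signs stood beside uncalled genes in the same stretch of chromosome 7.

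**Figure D2:**
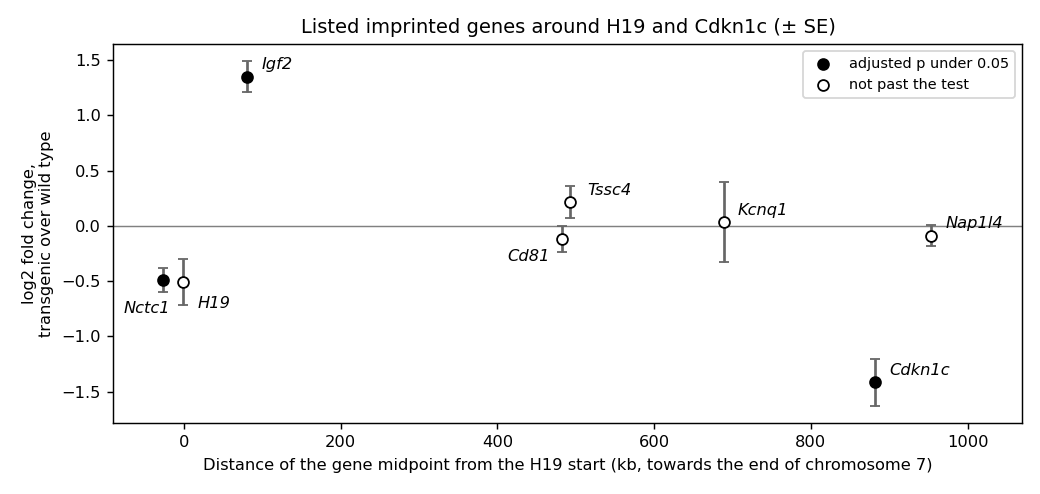
Log2 fold change (transgenic over wild type, ± SE, 5 libraries each) of the listed imprinted genes around H19 and Cdkn1c against the distance of each gene's midpoint from the H19 start in kb, with filled points for an edgeR adjusted p under 0.05. Igf2 lies at 1.35, Nctc1 at -0.49 and Cdkn1c at -1.42, and the open points between them lie from -0.51 (H19) to 0.22 (Tssc4).

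Ndn encodes necdin, a growth-restraining protein of the MAGE family that is transcribed from the paternal copy in the chromosome 7 region whose human counterpart is altered in Prader-Willi syndrome. The gene spans chromosome 7 from 62346569 to 62350262, plus strand. Transgenic libraries 1 to 5 held 7.29, 8.66, 9.999, 6.10 and 4.76 CPM. Wild-type libraries 1 to 5 held 4.73, 3.47, 5.49, 4.42 and 4.91 CPM. Transgenic libraries 1 to 4 lay above every wild-type library and transgenic library 5 lay among them. The mean was 7.36 ± 2.06 CPM in transgenic and 4.61 ± 0.744 CPM in wild-type muscle (SD, n = 5 each), and the edgeR log2 fold change was 0.67 with SE 0.20.

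Whether Ndn passed depended on the fit. The edgeR adjusted p was 0.0761, and the authors' deposited table gives 0.0458 for a log2 fold change of 0.67. It passed without transgenic library 5 (log2 fold change 0.79, edgeR adjusted p = 0.0225), without transgenic libraries 4 and 5 (0.90, adjusted p = 0.0163), with the hepatocyte covariate (1.27 ± 0.26, SE, adjusted p = 0.0477) and by DESeq2 (0.66, adjusted p = 0.0406). Transgenic library 3, the highest in Ndn, also held the highest sum of the 5 tendon markers in the table, 278 CPM, against 22.7 to 63.4 CPM in the other transgenic and 38.6 to 167 CPM in wild-type libraries. The group-centred r of Ndn with these markers was 0.79 (permutation adjusted p = 0.193) and 0.49 without transgenic libraries 3 and 5. With the hepatocyte markers it was -0.80 (permutation adjusted p = 0.193) and -0.40 without the same libraries. The adjusted p without transgenic library 3 was 0.103, at a log2 fold change of 0.54.

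Grb10 encodes an adaptor that binds the insulin and IGF1 receptors and dampens their signal, and outside the brain it is transcribed mainly from the maternal copy. It lies on chromosome 11 from 11930508 to 12038683, minus strand. Its level was 79.2, 68.8, 59.2, 62.1 and 55.6 CPM in transgenic libraries 1 to 5 and 85.9, 80.6, 73.0, 81.5 and 54.1 CPM in wild-type libraries 1 to 5. Wild-type library 5 was the lowest of all 10 and the groups overlapped. The mean was 65.0 ± 9.32 CPM in transgenic and 75.03 ± 12.6 CPM in wild-type muscle (± SD, n = 5 each; edgeR log2 fold change -0.21 with SE 0.14, adjusted p = 0.489).

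Peg3 and Plagl1 are paternally transcribed zinc finger genes, the first linked to growth and to muscle stem cells and the second a transcription factor that regulates other imprinted genes. Peg3 (chromosome 7, 6703892 to 6730431, minus strand) had 304, 356, 97.1, 241 and 338 CPM in transgenic libraries 1 to 5 and 441, 360, 253, 190 and 219 CPM in wild-type libraries 1 to 5. Transgenic library 3 was far below the rest, and the groups overlapped. The mean was 267 ± 105 CPM in transgenic and 293 ± 105 CPM in wild-type muscle (± SD, n = 5 each; edgeR log2 fold change -0.13 with SE 0.31, adjusted p = 0.881). Its biological coefficient of variation, the spread between mice beyond counting error, was 0.35, against 0.197 for genes of its level. The sign was not stable, with a log2 fold change of 0.08 without transgenic library 3.

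Plagl1 (chromosome 10, 13060504 to 13131694, plus strand) had 9.62, 6.94, 4.11, 5.01 and 4.63 CPM in transgenic libraries 1 to 5. Wild-type libraries 1 to 5 held 9.77, 8.56, 5.94, 5.47 and 3.90 CPM. Each group spread about as widely as the other, with means of 6.06 ± 2.26 CPM in transgenic and 6.72 ± 2.39 CPM in wild-type muscle (± SD, n = 5 each; edgeR log2 fold change -0.14 with SE 0.28, adjusted p = 0.852).

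Mest, a paternally transcribed gene for an enzyme of the hydrolase fold that marks fat tissue expansion, had 3.61, 5.08, 3.29, 3.45 and 4.38 CPM in transgenic and 4.10, 2.71, 6.05, 6.05 and 3.54 CPM in wild-type libraries 1 to 5. The groups overlapped (edgeR log2 fold change -0.19 with SE 0.23, adjusted p = 0.740). Mest lies on chromosome 6 from 30723547 to 30748465 and overlaps Copg2 on the opposite strand, whose reads cannot be told apart for the same reason.

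Meg3 and Dlk1 belong to 1 imprinted cluster on chromosome 12, where their gene bodies are 77665 bases apart. Meg3, a maternally transcribed long noncoding RNA (109541001 to 109571726, plus strand), had 31.8, 40.9, 14.1, 27.3 and 28.8 CPM in transgenic and 26.1, 31.7, 31.7, 28.3 and 30.8 CPM in wild-type libraries 1 to 5. Transgenic libraries 2 and 3 were the highest and the lowest of all 10. The mean was 28.6 ± 9.65 CPM in transgenic and 29.7 ± 2.43 CPM in wild-type muscle (± SD, n = 5 each; edgeR log2 fold change -0.06 with SE 0.21, adjusted p = 0.924), and the fold change was 0.11 without transgenic library 3.

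Dlk1, a paternally transcribed transmembrane protein with EGF-like repeats that holds back the maturation of fat cell precursors (109452823 to 109463336, plus strand), was near the limit of detection. It had 4, 19, 11, 7 and 4 reads in transgenic and 5, 8, 22, 18 and 3 reads in wild-type libraries 1 to 5, which gives 0.222 to 0.885 CPM in transgenic and 0.217 to 1.22 CPM in wild-type libraries. In a fit with no filter on low counts the log2 fold change was -0.64 ± 0.51 (SE), with an edgeR adjusted p of 0.584.

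Levels of different genes were compared as CPM per kb of exon, with the exon length of GENCODE release M21 merged over all transcripts of a gene. That length ran from 2039 bases for Cdkn1c to 18089 bases for Meg3, and the order below depends on it. H19 stood first at 381 ± 72.0 in transgenic and 543 ± 151 in wild-type muscle (SD, n = 5 each). Peg3 came next at 20.1 ± 7.86 in transgenic and 22.0 ± 7.88 in wild-type muscle. Cdkn1c was at 7.39 ± 2.26 CPM per kb in transgenic muscle, beside Grb10 at 7.15 ± 1.03, and at 19.8 ± 4.37 CPM per kb in wild-type muscle, beside Peg3. In wild-type muscle Grb10 was at 8.25 ± 1.39 CPM per kb. Cdkn1c and Grb10 thus lay within their spread of each other in transgenic muscle, and Cdkn1c and Peg3 in wild-type muscle. Ndn was at 1.99 ± 0.558 in transgenic and 1.25 ± 0.201 in wild-type muscle, Meg3 at 1.58 ± 0.534 and 1.64 ± 0.135, and Mest at 1.004 ± 0.190 and 1.14 ± 0.382 CPM per kb, in the same group order, and neighbours in this order overlapped in transgenic muscle. Plagl1 was at 0.775 ± 0.289 CPM per kb in transgenic and 0.860 ± 0.305 in wild-type muscle. Dlk1 was the lowest, at 0.0846 ± 0.0522 CPM per kb in transgenic and 0.130 ± 0.0798 in wild-type muscle (SD, n = 5 each).

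Other imprinted genes were followed in a list of 64, of which 49 were in the table and 42 were tested. They were listed by name as imprinted, and whether each is imprinted in this muscle was not measured. By the edgeR test 4 rose (Igf2, Calcr, Slc22a3 and Pon3) and 2 fell (Asb4 and Nctc1), against the 5.33% of all genes called, and the median log2 fold change was 0.02. Calcr, the calcitonin receptor, which marks quiescent satellite cells, had 6.28, 6.47, 5.63, 7.42 and 7.08 CPM in transgenic and 1.81, 2.12, 1.83, 2.60 and 1.66 CPM in wild-type libraries 1 to 5. The groups were far apart, with a log2 fold change of 1.71 ± 0.16 (SE) and an edgeR adjusted p of 5.5e-05. Asb4, whose product is a substrate receptor of a ubiquitin ligase, had 5.39, 9.45, 5.95, 7.80 and 7.72 CPM in transgenic and 11.7, 10.4, 14.8, 11.5 and 16.3 CPM in wild-type libraries 1 to 5, with no overlap (edgeR log2 fold change -0.83 with SE 0.17, adjusted p = 0.0137).

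Slc22a3, an organic cation transporter, had a mean of 1.89 ± 0.219 CPM in transgenic and 1.01 ± 0.303 CPM in wild-type muscle (± SD, n = 5 each; edgeR log2 fold change 0.90 with SE 0.23, adjusted p = 0.0366), and it overlaps the liver gene Plg on the opposite strand. Pon3, a paraoxonase made in liver, had 33.1 ± 3.30 CPM in transgenic and 24.3 ± 3.18 CPM in wild-type muscle (± SD, n = 5 each; edgeR log2 fold change 0.44 with SE 0.12, adjusted p = 0.0476). Pon3 lost its call without any 1 library except transgenic library 3, with edgeR adjusted p up to 0.149. Slc22a3 lost its call without transgenic library 1, 2 or 5 or wild-type library 1, 2, 3 or 4 (edgeR adjusted p up to 0.123). In transgenic libraries 1 to 5 Pon3 had 32.8, 36.5, 27.8, 33.3 and 35.0 CPM and Slc22a3 2.11, 1.86, 1.84, 1.56 and 2.06 CPM. The hepatocyte markers summed to 592.5, 963, 507, 1435 and 5787 CPM there, and their part was not tested. Neither gene passed with the hepatocyte covariate, with log2 fold changes of 0.27 ± 0.20 for Pon3 and 0.78 ± 0.37 for Slc22a3 (SE), at edgeR adjusted p of 0.570 and 0.399. The covariate separates the groups without overlap, and 82 genes in all were called with it, against 711 without it. Igf2 and Calcr passed in that fit, with log2 fold changes of 1.37 and 1.52. Asb4 at -1.12 ± 0.30 and Nctc1 at -0.65 ± 0.19 (SE) did not (edgeR adjusted p = 0.130 and 0.168). The satellite cell markers Pax7 and Myf5 rose beside Calcr, with log2 fold changes of 0.93 ± 0.18 and 1.71 ± 0.23 (SE), at edgeR adjusted p of 0.00969 and 0.000940. They were the 2 called members of a list of 9, where 4.28% of all genes tested were called as higher. That list mixes markers of satellite cells with markers of regenerating fibres, so its median and sum do not single out satellite cells. Of the 9 genes 5 had a positive and 4 a negative log2 fold change, with a median of 0.03. Myod1 (-0.38), Chrna1 (-0.27), Myog (-0.08) and Myh8 (-0.05) were the negative ones and none of them passed. The summed level of the list was 54.4 to 87.5 CPM in transgenic and 50.2 to 68.8 CPM in wild-type libraries, none of its members was at 0 in all libraries, and its part in the changes above was not tested.

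**Figure D3:**
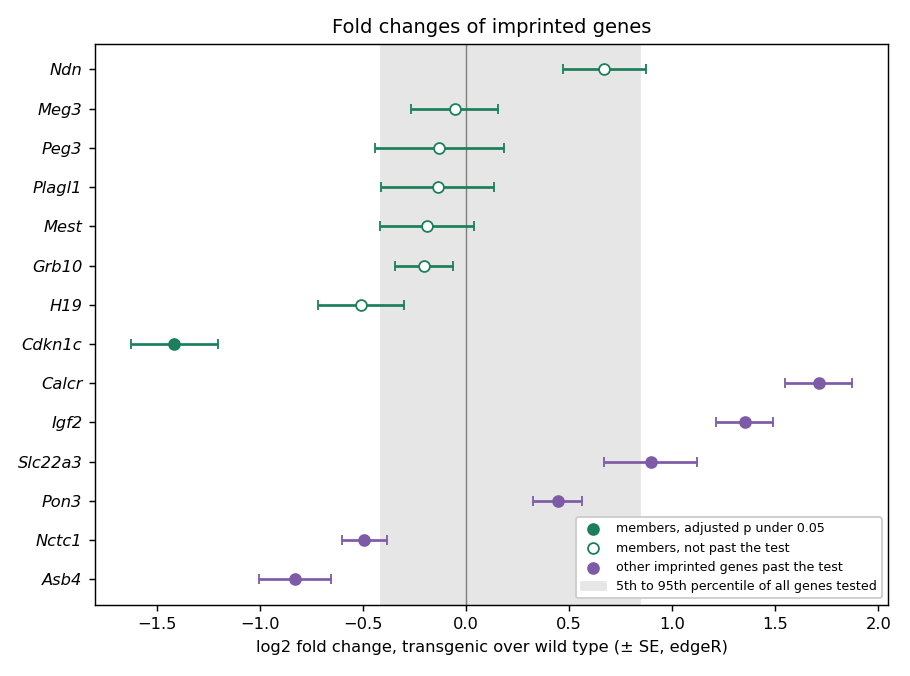
Log2 fold change (transgenic over wild type, ± SE, 5 libraries each) of the 8 tested imprinted growth genes (green) and the 6 called genes of the longer list of imprinted genes (purple), with the range from the 5th to the 95th percentile of all genes tested in grey, -0.41 to 0.85. Cdkn1c, H19, Nctc1, Asb4, Calcr, Igf2 and Slc22a3 lie outside that range.

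Factors that set, keep or read imprints made a list of 23, such as DNA methyltransferases, TET enzymes, Trim28 and Ctcf. None of the 21 tested with edgeR passed the threshold, where edgeR called 5.33% of all genes. By DESeq2, which called 1230 of 15882 genes, none of the list passed either. An unadjusted p under 0.05 was found for 4 of the 21, and for 2412 of all 13338 genes. The smallest were those of Tet3, an enzyme that oxidises methylcytosine, with a log2 fold change of -0.29 ± 0.10, and of Ehmt1, a histone H3 methyltransferase, with one of -0.30 ± 0.11 (SE), at edgeR adjusted p of 0.152 and 0.161. Without transgenic library 3 Smchd1, a chromatin protein of imprinted and X-linked silencing, and Tet1 passed as higher. In that fit 764 of all 13540 genes tested passed as higher.

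Cyclin-dependent kinase inhibitors, cyclins of cell cycle entry, their kinases and the pocket proteins made a list of 21, of which 18 were tested. By the edgeR test 4 rose, all of them cyclins, and none fell, where 4.28% of all genes tested were called as higher and 1.05% as lower. The median log2 fold change was 0.04. Ccne1, a partner of CDK2, had 1.502, 0.931, 1.46, 1.51 and 1.48 CPM in transgenic and 0.394, 0.0847, 0.166, 0.195 and 0.650 CPM in wild-type libraries 1 to 5, which is 125 reads against 21 (edgeR log2 fold change 2.19 with SE 0.38, adjusted p = 0.00562). Ccnd1, a partner of CDK4 and CDK6, had 6.80 ± 0.700 CPM in transgenic and 2.66 ± 0.981 CPM in wild-type muscle (± SD, n = 5 each; edgeR log2 fold change 1.34 with SE 0.22, adjusted p = 0.00389). Ccnd3 was higher by 0.66 ± 0.13 and Ccne2 by 0.92 ± 0.19 on the log2 scale (SE), at edgeR adjusted p of 0.00951 and 0.0121. In each of the 4 cyclins the transgenic libraries lay above every wild-type library, as they did in 5.14% of all genes tested. Ccnd1, Ccnd3 and Ccne2 overlap LTO1, Bysl and Ints8 on the opposite strand. The inhibitors of the family of Cdkn1c did not pass, with log2 fold changes of -0.21 ± 0.09 for Cdkn1b and -0.29 ± 0.25 for Cdkn1a (SE), at edgeR adjusted p of 0.252 and 0.610. With the hepatocyte covariate none of the 4 cyclins passed (edgeR adjusted p from 0.0850 to 0.288). The log2 fold changes there were 2.03 ± 0.57 for Ccne1, 1.49 ± 0.35 for Ccnd1 and 0.78 ± 0.21 for Ccnd3 (SE), and 0.88 for Ccne2. Since the covariate separates the groups without overlap, genotype and hepatocyte transcript level cannot be told apart in that fit.

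**Figure D4:**
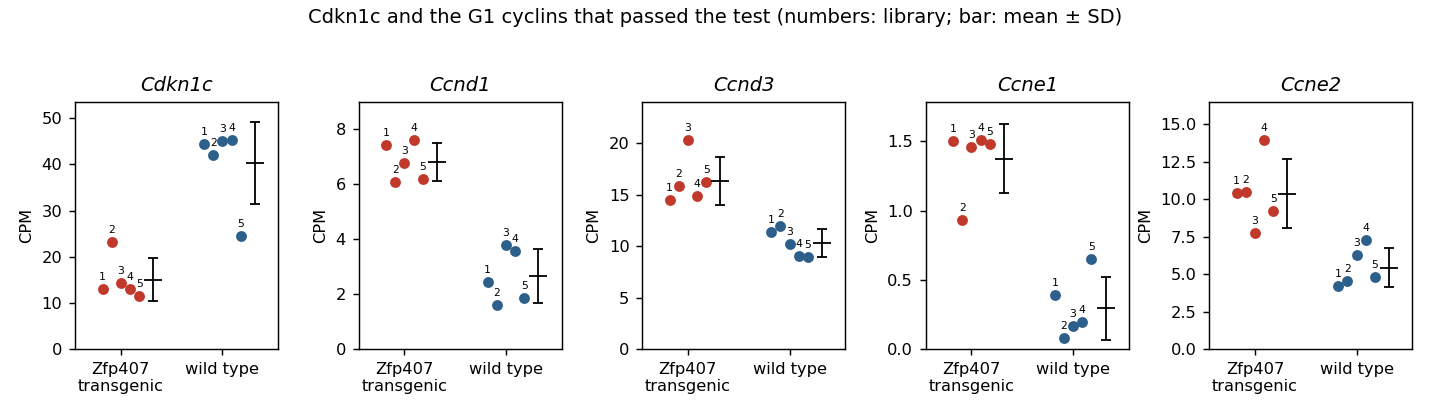
CPM of Cdkn1c and of the 4 cyclins that passed the edgeR test in each library, with Zfp407 transgenic libraries (red) left of wild-type libraries (blue) and bars for mean ± SD (n = 5 each). Cdkn1c is lower and Ccnd1, Ccnd3, Ccne1 and Ccne2 are higher in all transgenic libraries than in any wild-type library.

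Variation between mice of the same group was measured apart from the group contrast. The log2 CPM of each gene was centred on its group mean and correlated over the 10 libraries, with a two-sided permutation test that shuffled libraries within each group (100000 resamples). With 5 libraries a group, no r was computed within a group. Among 28 pairs of the 8 tested genes 21 had a positive and 7 a negative Pearson r, with a median of 0.24, and none passed after Benjamini-Hochberg adjustment over the pairs. Plagl1 and Grb10 came nearest, with r = 0.88 (permutation p = 0.00188, adjusted p = 0.0526) and Spearman rho = 0.87 (adjusted p = 0.0591). Their r was 0.81 without transgenic library 1 and wild-type library 1, the farthest from the median of Plagl1, and 0.83 to 0.96 over 15 other settings (adjusted p 0.0255 to 0.363), with the lowest adjusted p and the only call without wild-type library 4. Cdkn1c and H19 had r = 0.70 (permutation adjusted p = 0.399) and rho = 0.81 (adjusted p = 0.0591), and r = 0.47 without transgenic library 2 and wild-type library 5. Meg3 and Peg3 had r = 0.75 (permutation adjusted p = 0.425), which was 0.01 without transgenic libraries 2 and 3, so that relation rests on those libraries.

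Neighbours in the same imprinted cluster were compared in a set of pairs added after the data had been seen, each a tested gene of the 8 with a listed imprinted gene within 1 Mb. Of 20 such pairs 1 passed, Peg3 with Zim1, a zinc finger gene transcribed from the maternal copy 7442 bases away. Zim1 had 58.1, 51.2, 18.7, 38.6 and 50.1 CPM in transgenic and 74.1, 70.4, 34.1, 27.3 and 30.3 CPM in wild-type libraries 1 to 5. As in Peg3, transgenic library 3 was the lowest and wild-type library 1 the highest. Pearson r was 0.95 (permutation p = 0.000940, adjusted p = 0.0188) and Spearman rho 0.90 (permutation adjusted p = 0.0666). Without transgenic library 3 and wild-type library 4 r was 0.91, and over 15 other settings it ran from 0.94 to 0.96 while the permutation adjusted p ran from 0.00520 to 0.101. The permutation adjusted p missed the threshold without transgenic library 3 or 4 or any of the 5 wild-type libraries, and the cause was not tested. H19 and Igf2 had r = -0.02 and H19 and Nctc1 r = 0.43 (permutation adjusted p = 0.998 and 0.560).

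Start regions of the 2 pairs that varied together most are shown with their CpG sites in capitals. Whether any of these sites carries an imprinting mark was not measured. They are the RefSeq windows on GRCm38.p6 from 250 bases before to 50 bases after the annotated start, written in the direction of the gene. RefSeq windows were found for 7 of the 9 genes in the table and for Zim1, and Cdkn1c and H19 had no entry. Mest had 3 windows and Meg3 and Grb10 had 2 each, of which the nearest to the GENCODE gene start was used. The Mest window used lies 9959 bases from that start. The Plagl1 window is at chr10:13090582-13090881 (plus strand), 30328 bases from the GENCODE gene start, and that of Grb10 at chr11:12037371-12037670 (minus strand). The Peg3 window is at chr7:6730370-6730669 and the Zim1 window at chr7:6696383-6696682, both on the minus strand.
Plagl1: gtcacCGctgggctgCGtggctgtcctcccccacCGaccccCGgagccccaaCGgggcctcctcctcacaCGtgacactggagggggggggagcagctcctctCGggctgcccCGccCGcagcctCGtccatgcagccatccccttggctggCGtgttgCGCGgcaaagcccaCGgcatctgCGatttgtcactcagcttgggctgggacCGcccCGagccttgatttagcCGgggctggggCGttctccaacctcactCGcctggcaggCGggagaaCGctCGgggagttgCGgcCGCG
Grb10: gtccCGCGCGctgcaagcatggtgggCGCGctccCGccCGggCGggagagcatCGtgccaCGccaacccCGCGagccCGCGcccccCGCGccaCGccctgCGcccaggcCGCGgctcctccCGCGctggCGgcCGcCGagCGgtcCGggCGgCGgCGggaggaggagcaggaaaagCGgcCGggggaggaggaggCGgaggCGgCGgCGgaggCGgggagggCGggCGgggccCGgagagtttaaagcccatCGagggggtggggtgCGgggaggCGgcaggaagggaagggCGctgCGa
Peg3: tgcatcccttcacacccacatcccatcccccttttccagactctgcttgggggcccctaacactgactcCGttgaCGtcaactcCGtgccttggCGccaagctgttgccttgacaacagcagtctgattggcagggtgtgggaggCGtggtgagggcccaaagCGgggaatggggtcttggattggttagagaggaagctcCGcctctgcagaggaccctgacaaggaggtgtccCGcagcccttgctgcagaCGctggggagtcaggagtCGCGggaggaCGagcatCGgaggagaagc
Zim1: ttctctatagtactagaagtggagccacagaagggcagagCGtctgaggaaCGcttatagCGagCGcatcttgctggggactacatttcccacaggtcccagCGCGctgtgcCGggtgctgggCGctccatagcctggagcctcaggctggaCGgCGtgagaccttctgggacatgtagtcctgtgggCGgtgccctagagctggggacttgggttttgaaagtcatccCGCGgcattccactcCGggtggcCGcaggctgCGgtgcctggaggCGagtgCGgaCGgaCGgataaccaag

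The Grb10 window holds 45 CpG sites with a GC content of 80.0% and the Plagl1 window 26 with 70.7%. The Zim1 window holds 20 CpG sites and the Peg3 window 13. The windows of Meg3, Dlk1, Mest and Ndn hold 13, 9, 8 and 11 CpG sites. All 7 windows used for the listed genes were above the median of 7 CpG sites over 32851 RefSeq windows of mouse genes. Of those windows 43.5% hold 10 or more and 26.5% hold 20 or more. Other windows of the same genes were not counted. The motif GGGGCCCC, bound by PLAGL1 and its own reverse complement, was found once in the Peg3 window and in none of the other 6 or in Zim1, and 1.08% of all windows hold it. Counts of letters describe the windows and say nothing of methylation, which was not measured.

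Of 10 leukocyte markers 8 were tested, and all 8 had a positive log2 fold change with a median of 0.53. Only 1 of the 8, Cd74, passed (0.89 with SE 0.21, edgeR adjusted p = 0.0220), where 4.28% of all genes tested were called as higher. The summed level of the list was 134 to 336 CPM in transgenic and 108 to 204 CPM in wild-type libraries, and its part in the fold changes was not tested. Levels of other cell types also varied between mice, and the 8 genes were set against the summed level of 9 marker lists, in 72 pairs added after the data had been seen. After adjustment 2 passed. Peg3 ran against skeletal muscle fibre markers, with r = -0.97 (permutation p = 0.000230, adjusted p = 0.00936), rho = -0.98 (adjusted p = 0.0166) and r = -0.95 without transgenic library 3 and wild-type library 4. Fibre markers were highest in transgenic library 3, at 114751 CPM, where Peg3 was lowest. That library also held the highest sums of fibroblast markers, 6457 CPM, and of tendon markers, 278 CPM. Its endothelium markers summed to 323 CPM, within the 286 to 369 CPM of the transgenic libraries. The part of the fibre share in the level of Peg3 was not tested. Plagl1 ran with adipocyte markers, with r = 0.98 (permutation p = 0.000260, adjusted p = 0.00936), rho = 0.93 (adjusted p = 0.0418) and r = 0.96 without transgenic library 1 and wild-type library 1. The 6 adipocyte markers, among them Adipoq, Plin1 and Cidec, summed to 568, 389, 92.3, 116 and 167 CPM in transgenic and to 691, 419, 191, 153 and 84.7 CPM in wild-type libraries 1 to 5, and none was at 0 in all libraries. Libraries 1 and 2 of each group held the most Plagl1 and the most adipocyte transcript. The share of rows resembling ribosomal RNA fell in the same order in wild-type libraries 1 to 5, at 33.9%, 29.3%, 19.9%, 18.2% and 14.3%. In transgenic libraries 1 to 5 it was 13.8%, 13.6%, 17.3%, 9.62% and 16.8% and did not follow that order. The part of fat cells or of that share in the level of Plagl1 was not tested.

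Grb10 had r = 0.82 with the adipocyte markers (permutation adjusted p = 0.159), Peg3 one of 0.76 with the same markers (adjusted p = 0.164) and Plagl1 one of 0.75 with leukocyte markers (adjusted p = 0.193). The values of H19 and Cdkn1c with Schwann cell markers and of Ndn with tendon and hepatocyte markers, given above, come from the same 72 pairs. Over 15 other settings the r of Peg3 with fibre markers ran from -0.98 to -0.95 and that of Plagl1 with adipocyte markers from 0.97 to 0.99, with permutation adjusted p from 0.00828 to 0.135. Neither passed when transgenic libraries 1 and 2, or 4 and 5, were left out. There 720 arrangements are possible and the smallest permutation p is 0.00139. That is too large for 2 pairs to pass adjustment over 72, so those fits cannot decide.

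**Figure D5:**
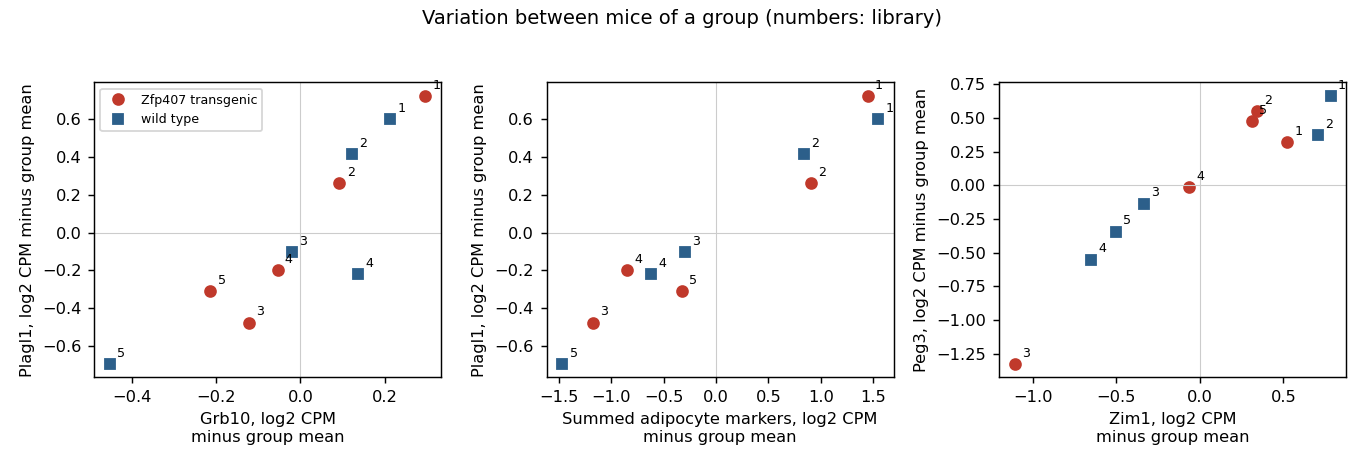
Group-centred log2 CPM of Plagl1 against Grb10 (left), of Plagl1 against the summed adipocyte markers (middle) and of Peg3 against Zim1 (right), with 5 Zfp407 transgenic libraries (red circles) and 5 wild-type libraries (blue squares) numbered by column. The points rise together in each panel, with r = 0.88, 0.98 and 0.95, and transgenic library 3 lies at the lower left of the Peg3 panel.

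Of 8780 genes with a mean of at least 5 CPM, those most like Cdkn1c in group-centred log2 CPM over the 10 libraries were Rpl7 (r = 0.90), Rps7 (0.90) and Hbb-bt (0.89), and r was 0.86, 0.76 and 0.74 without transgenic library 2 and wild-type library 5. Rpl7 and Rps7 encode ribosomal proteins and Hbb-bt a beta globin. Those most like H19 were Rpl35a (0.93), Slc31a2 (0.91) and Sec22a (0.90), and their r was 0.58, 0.54 and 0.41 without transgenic library 1 and wild-type library 5, so these likenesses rest on those libraries. Those most like Meg3 were Ogfrl1 (0.99), 5830428H23Rik (0.98) and Dmtf1 (0.98), with r of 0.81, 0.80 and 0.86 without transgenic libraries 2 and 3. These were the highest of 8780 values per gene and carry no test.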

How the data were processed

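RNA of 10 mouse biceps femoris samples was sequenced, 5 Zfp407 transgenic and 5 wild type. Build GRCm38.p4 was used per the submitters' processing notes, which name HTSeq 0.6.1 and DESeq2 1.10 besides TopHat2 2.1, SAMtools 1.2 and Bowtie2 2.2.6. Counting settings, strand use and gene models are not stated there. The deposited table holds raw counts per gene. It also holds the authors' mean signal per gene, log2 fold change, Wald statistic (a score) and p-values, which the authors made with DESeq2 by the column names.

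The members and all lists were chosen with earlier results of these data known. The series describes separate mice. Counts were filtered with filterByExpr, TMM-scaled and tested with edgeR 4.0.16 (quasi-likelihood) in R 4.3.3, without covariates, with Benjamini-Hochberg adjustment over 13338 genes and a threshold of 0.05. Log2 CPM used a prior count of 2. The script was tested on simulated counts. Alternatives were RLE size factors, no filter, DESeq2 1.42.0, left-out libraries, removal of rows resembling ribosomal RNA and a hepatocyte covariate (16 markers). Named genes were the 10 listed symbols, Zfp407, Igf2, called genes of each list (or the 2 with the smallest p) and the 3 likest genes of Cdkn1c, H19 and Meg3. Other neighbours and markers were named after their values had been seen. Chi-square per degree of freedom between libraries of a group was at least 16.1 in 20 pairs, beyond sampling noise. Coordinates and exon lengths come from GENCODE M21 (GRCm38).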

Additional observations from a re-analysis of the deposited data

Results flagged for a closer look

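In 42 groups of 5 libraries the gap of the highest or lowest library to its nearest neighbour was set against the whole range, and it was above the 95% critical value of Dixon, 0.71, in 3. Chance gives about 1 in 20. Cdkn1c had 24.5 CPM in wild-type library 5, against 42.0 to 45.4 CPM in the other wild-type libraries. H19 had 633 CPM in transgenic library 1, against 953 to 1076 CPM in the other transgenic libraries. Ccne1 had 0.931 CPM in transgenic library 2, against 1.46 to 1.51 CPM in the other transgenic libraries.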

How the results depend on the processing

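No paired analysis was possible because the columns carry no number that the labels share between groups. The fall of Cdkn1c passed in all settings except the hepatocyte covariate. The count of called genes among the 8 was 1 to 2 with 1 library left out, 2 without transgenic libraries 4 and 5 and 2 by DESeq2, with Ndn added each time. With the covariate it was 1, and the called gene was Ndn instead of Cdkn1c. Over all genes 711 were called, 450 (without wild-type library 3) to 1116 (without transgenic library 3) with 1 library left out, 82 with the covariate and 1230 by DESeq2. In the longer imprinted list 6 were called, 4 to 8 with 1 library left out, 3 without transgenic libraries 1 and 2 and 2 with the covariate. For imprint maintenance the count of 0 was 0 to 2 with 1 library left out. The 4 cyclin calls were 0 with the covariate.

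With 1 library left out the log2 fold change of Meg3 ran from -0.22 (without transgenic library 2) to 0.11 (without transgenic library 3) and that of Peg3 from -0.28 (without wild-type library 4) to 0.081 (without transgenic library 3). Signs also turned for Peg3 (0.026) without wild-type library 1, for Plagl1 (0.047) without transgenic libraries 4 and 5, and for Plagl1 (0.40) and Grb10 (0.075) with the covariate. None of these values was called. Pairs past the test among the 8 genes were 0, and 0 to 1 with 1 library left out (1 without wild-type library 4). Cluster neighbours gave 1 pair, 0 to 2 with 1 library left out, 0 by Spearman rho, 0 without transgenic libraries 4 and 5, but 3 when transgenic libraries 1 and 2 were left out. The cause of these changes was not tested. Marker lists gave 2 pairs, and 0 when either transgenic libraries 4 and 5 or transgenic libraries 1 and 2 were left out. The smallest permutation p there, 0.00139, is too large for 2 pairs to pass adjustment over 72, so those fits cannot decide. Dlk1 rests on 45 reads in transgenic and 56 in wild-type libraries.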
